A study of Rattus norvegicus with 6 samples.

Results

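Transcripts of endoplasmic reticulum (ER) chaperones, of ER-associated degradation and of the integrated stress response were examined in the renal cortex of rats given ethylenediamine dihydrochloride, against rats given water. The set holds 36 genes named as a list. They were looked up by symbol through the RefSeq accession of each array probe, and the brightest probe of a gene over the 6 arrays stood for it. Of the 36 genes, 33 had a named probe and all 33 passed the filter on dim probes, out of 11530 genes tested on the arrays. Manf, Edem1 and Derl2 had no probe named in this way and were not analysed here.

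The animals were male Sprague-Dawley (Crl:CD(SD)) rats, bought at 5 weeks of age and fed a basal diet with tap water. The treated group of 3 rats received ethylenediamine dihydrochloride, the salt of a small diamine, at 500 mg/kg/day for 4 weeks. The control group of 3 rats received water over the same 4 weeks. RNA of the cortex of each rat was hybridised to its own 1-colour Agilent array, and no genetic change or other agent is given for either group.

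The ER folds secreted and membrane proteins with the help of chaperones such as BiP, encoded by Hspa5. When unfolded protein builds up, the membrane sensors ATF6, IRE1 (Ern1) and PERK (Eif2ak3) start the unfolded protein response, in which ATF6 and spliced XBP1 switch on genes of chaperones and of ER-associated degradation. PERK also phosphorylates the translation factor eIF2, as do kinases that sense amino acid shortage, viral RNA or haem loss. This common arm, the integrated stress response, raises translation of ATF4, which switches on genes of amino acid supply and, with longer stress, Ddit3 (CHOP). The proximal tubule, which makes up most of the cortex, reabsorbs much protein and is also a known site of serine synthesis. Splicing of Xbp1 and phosphorylation of eIF2 are not read by these probes.

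Values below are the log2 of the processed signal minus the 75th percentile of the array, called the log2 signal. A value is comparable between arrays for 1 gene, not between genes. The arrays lay on 2 slides. Slide 1 held ethylenediamine replicate 1 and all 3 water arrays, and slide 2 held ethylenediamine replicates 2 and 3, so that only slide 1 allows a comparison within a slide. Between 35691 and 40843 of 61515 probes were well above background on the 6 arrays, and ethylenediamine replicate 1 had the fewest. Probes dim on every array stood 0.66 log2 units above the water mean on that array, against -0.062 and -0.17 on ethylenediamine replicates 2 and 3. Of the proximal tubule markers used to check the tissue label, 6 of 6 were well above background on all 6 arrays, with the phosphate transporter Slc34a1 at 8.17, 8.27 and 8.22 on ethylenediamine arrays and 8.29, 8.19 and 8.18 on water arrays. In whole cortex, fewer cells of a type and less RNA per cell cannot be told apart.

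By limma, 0 of the 33 genes passed an adjusted p of 0.05, where 0% of all 11530 genes did. At an unadjusted p under 0.05 there were 4 of the 33, of which Asns and Ppp1r15a were higher and Phgdh and Psph lower in ethylenediamine cortex. All 4 belong to the targets of ATF4 and CHOP. Over all genes tested, 10.4% had such a p, made up of 5.39% higher and 4.97% lower. Leaving out 1 array at a time left 0 to 2 members higher and 0 to 3 lower at that p, with none in either direction without water replicate 1. The groups did not overlap for 4 of the 33 genes, against 17.5% of all genes. Ethylenediamine values lay above all water values for Ppp1r15a alone (9.20% of all genes) and below them for Atf6, Phgdh and Psph (8.27% of all genes). Fold changes of the 33 genes ran from -0.33 (Psph) to 0.42 (Trib3) on the log2 scale, with 14 positive and 19 negative, a median of -0.026 and a median of -0.0036 over all genes. With each array scaled on its median, 10 were positive and 23 negative, and the median over all genes was then -0.032. The split also turned on slide 1, but that slide holds 1 treated rat, and slide and rat cannot be told apart. Within slide 1, where ethylenediamine replicate 1 stands alone against the 3 water arrays, 23 were positive and 10 negative with a median of 0.10, while the median over all genes stayed at -0.0022. Leaving out 1 array at a time gave 9 (without water replicate 1) to 21 (without water replicate 2) positive values of 33. Without ethylenediamine replicate 2 there were 20.

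**Figure D1:**
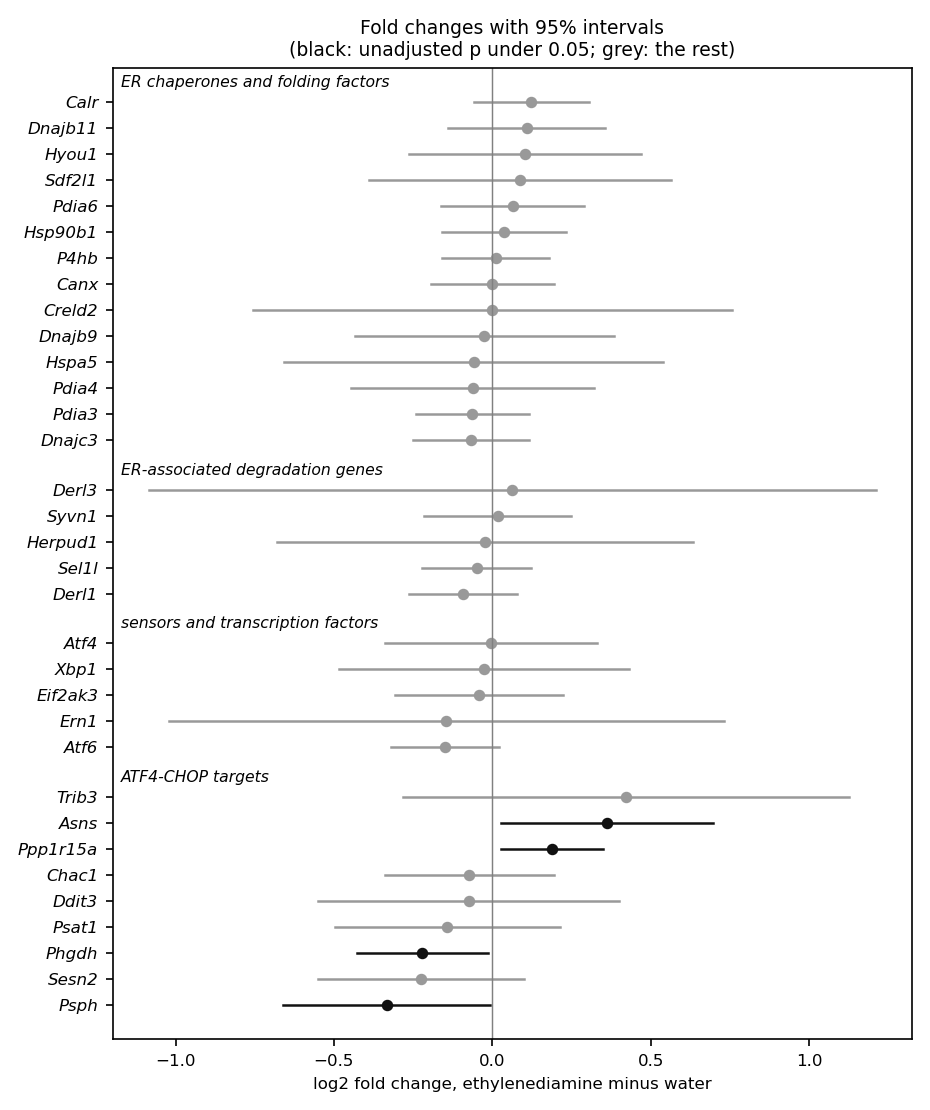
Log2 fold change (ethylenediamine minus water) of each of the 33 measured genes with its 95% interval from the moderated fit, 3 arrays per group, ordered within each role. The intervals of the ER chaperones, of degradation genes and of sensors all hold 0, and the 4 black intervals that exclude it, at an unadjusted p under 0.05, are Asns, Ppp1r15a, Phgdh and Psph.

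Chaperones and folding enzymes of the ER did not differ between the groups beyond the spread between rats. Of 15 listed, 14 were measured, 9 with a positive and 5 with a negative fold change, and their median was 0.0054. Within slide 1 the median was 0.096. None of the 14 had an unadjusted p under 0.05 by limma and none had groups without overlap. Hspa5 encodes BiP, the ER chaperone whose transcript is the classical readout of the unfolded protein response. Its log2 signal was 5.53, 4.94 and 5.68 on ethylenediamine arrays, against 5.11, 5.70 and 5.52 on water arrays. The groups overlapped, and the lowest value of each group lay far below its other values. The fold change was -0.059 ± 0.24 (SE, n = 3 per group, adjusted p = 0.949), with a 95% interval of -0.66 to 0.54, and it was 0.090 within slide 1.

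Hsp90b1, the ER member of the HSP90 family, varied less. It stood at 3.71, 3.56 and 3.62 on ethylenediamine arrays and at 3.47, 3.69 and 3.62 on water arrays, a fold change of 0.037 ± 0.079 (adjusted p = 0.896). The groups overlapped here too, and its interval was -0.16 to 0.23. The highest fold change among the chaperones was that of Calr, which encodes calreticulin, a lectin that holds glycoproteins during folding. Calr stood at 3.46, 3.29 and 3.50 in ethylenediamine cortex, against 3.26, 3.33 and 3.31 in water cortex, where ethylenediamine replicates 1 and 3 lay above all water arrays and replicate 2 among them. Its fold change was 0.12 ± 0.073 (adjusted p = 0.616). The lowest was that of Dnajc3, a J-domain co-chaperone of BiP, at 2.25, 2.05 and 2.16 on ethylenediamine arrays and 2.18, 2.30 and 2.19 on water arrays, which overlapped, with a fold change of -0.067 ± 0.074 (adjusted p = 0.765).

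The other chaperones lay between these. The membrane-bound lectin Canx (calnexin), partner of Calr, had a fold change of 0.00053 ± 0.078, and the 2 were not compared by a test. The protein disulphide isomerases Pdia3, Pdia4, Pdia6 and P4hb, which form and shuffle disulphide bonds, ran from -0.064 (Pdia3) to 0.064 (Pdia6), with Pdia4 at -0.062 ± 0.16 and P4hb at 0.010 ± 0.068. The BiP co-chaperones Dnajb9 and Dnajb11 stood at -0.026 ± 0.17 and 0.11 ± 0.10, and Hyou1, which exchanges the nucleotide of BiP, at 0.10 ± 0.15. Sdf2l1, a partner of Dnajb11, stood at 0.087 ± 0.19. Creld2, a secreted ER stress gene of the disulphide isomerase kind, had almost the same mean in both groups, at 0.97 ± 0.48 on ethylenediamine arrays and 0.97 ± 0.41 on water arrays (SD, n = 3 each), with the widest interval of the 14, -0.76 to 0.76. Its lowest values were those of ethylenediamine replicate 2 and water replicate 1.

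Genes of ER-associated degradation, which extracts misfolded proteins from the ER and ubiquitinates them, also overlapped between the groups. Of 7 listed, 5 were measured, 2 with a positive and 3 with a negative fold change and a median of -0.024 (0.12 within slide 1), and none had an unadjusted p under 0.05. Herpud1, a membrane scaffold of the degradation complex and a strong stress target, stood at 3.99, 3.35 and 4.09 on ethylenediamine arrays and 3.56, 4.27 and 3.68 on water arrays. The groups overlapped, with ethylenediamine replicate 2 below all water arrays and water replicate 2 above all ethylenediamine arrays, and the fold change was -0.024 ± 0.27 (adjusted p = 0.982; 0.15 within slide 1). Sel1l, the adaptor of the ubiquitin ligase Syvn1 (HRD1), stood at -0.79, -0.68 and -0.60 on ethylenediamine arrays and -0.63, -0.59 and -0.70 on water arrays, which overlapped, with a fold change of -0.050 ± 0.070 (adjusted p = 0.821). Syvn1 itself stood at 0.017 ± 0.094.

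Derlins form part of the channel through which proteins leave the ER. Derl1 stood at 3.32, 3.15 and 3.25 in ethylenediamine cortex and 3.26, 3.40 and 3.34 in water cortex, overlapping between the groups, with the lowest fold change of this group, -0.094 ± 0.069 (adjusted p = 0.671). Derl3, the derlin of secretory tissues, was the most variable of the 33 genes between rats. Its log2 signal was 0.31, -0.71 and -0.28 on ethylenediamine arrays, against -1.02, 0.61 and -0.45 on water arrays, a range of 1.63 among the water rats alone. Its fold change of 0.063 ± 0.47 (adjusted p = 0.973) therefore has an interval of -1.08 to 1.21. Plasma cells, a known source of Derl3, had 3 of 7 marker genes measured, with list medians of -0.17 to 0.11 on ethylenediamine arrays and -0.055 to 0.050 on water arrays, and their part in the Derl3 values was not tested. Of the other 4 markers, Mzb1 and Tnfrsf17 were too dim for the filter, and Jchain and Cd79a had no named probe.

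The sensors and transcription factors that control these genes had 5 of 5 negative fold changes, with a median of -0.041, where 51.2% of all genes were negative. Within slide 1 the median was 0.14. On the brightest probe, none of the 5 had an unadjusted p under 0.05 by limma. Atf4, at -0.0039, and Xbp1, at -0.026, lay close to 0. Ern1 passed the filter on dim probes through the water arrays alone. With only probes well above background on all 6 arrays, which leaves Ern1 out, the median was -0.034. Atf6, a sensor whose cleaved form is itself a transcription factor, stood at 1.48, 1.30 and 1.36 in ethylenediamine cortex, against 1.50, 1.59 and 1.48 in water cortex. All 3 ethylenediamine values lay below all 3 water values, and the fold change was -0.15 ± 0.069 (adjusted p = 0.529). The other 2 Atf6 probes were also lower with no overlap, by the fit of every probe alone at -0.18 ± 0.068 and -0.41 ± 0.15. By limma their unadjusted p was 0.0348 and 0.0331, and their adjusted p over probes 0.435 and 0.432. Within slide 1, the value of the brightest probe was -0.048, and without ethylenediamine replicate 1 it was -0.20 (adjusted p = 0.322).

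Xbp1, the transcription factor whose messenger is spliced by IRE1, stood at 2.70, 2.24 and 2.64 on ethylenediamine arrays and 2.24, 2.80 and 2.63 on water arrays, a fold change of -0.026 ± 0.19 (adjusted p = 0.971; 0.14 within slide 1). Atf4 stood at 4.86, 4.56 and 4.39 on ethylenediamine arrays and 4.48, 4.72 and 4.61 on water arrays, a fold change of -0.0039 ± 0.14 (adjusted p = 0.993; 0.25 within slide 1), the highest of the 5. Both genes had overlapping groups. Eif2ak3, which encodes PERK, stood at -0.041 ± 0.11, and at 0.15 within slide 1. Ern1, which encodes IRE1, lay near background, being well above it on 1 of 3 ethylenediamine arrays and on 3 of 3 water arrays, and its fold change of -0.14 ± 0.36 carries little precision, with an interval of -1.02 to 0.73.

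**Figure D2:**
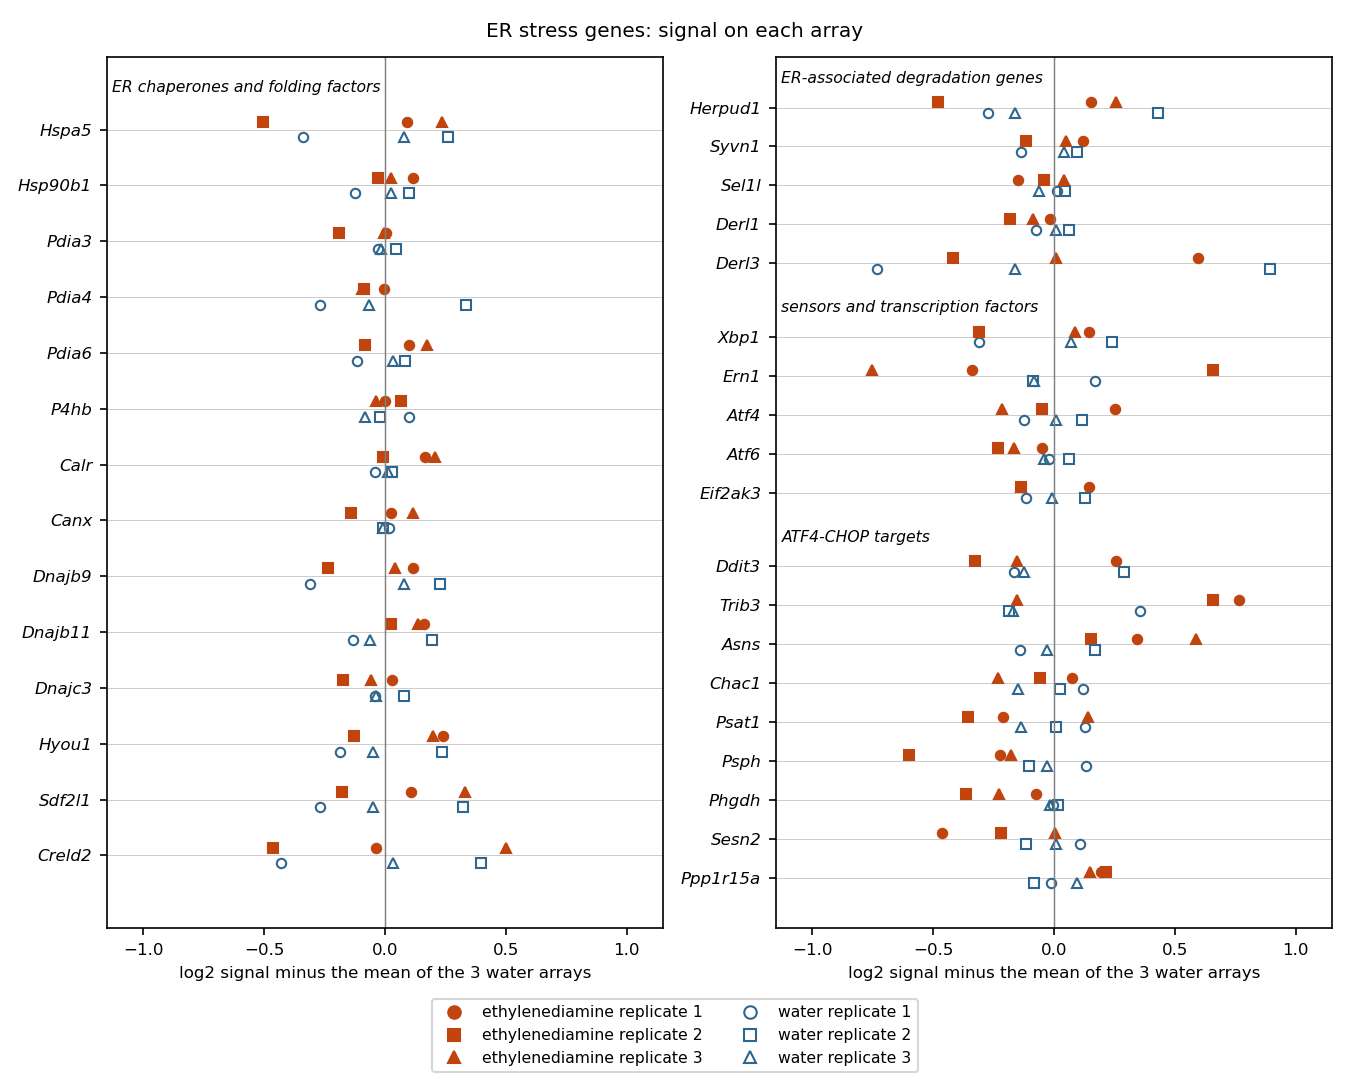
Log2 signal of each measured gene on each array as a difference from the mean of the 3 water arrays, with ethylenediamine arrays filled and drawn above the open water arrays. Ethylenediamine replicate 2 and water replicate 1 lie at the low end for Hspa5, Creld2, Herpud1, Derl3 and Xbp1, and ethylenediamine replicate 3 or water replicate 2 is the highest array for these 5 genes, so that the groups overlap.

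The differences among the rats of a group had the same order in many of these genes. Ethylenediamine replicate 2 and water replicate 1 were the 2 lowest arrays for 14 of the 33 genes, where this held for 5.92% of all 11530 genes. They were Hspa5, Hsp90b1, Pdia3, Pdia6, Calr, Dnajb9, Hyou1, Sdf2l1 and Creld2 among the chaperones (9 of 14), Herpud1, Syvn1 and Derl3 among the degradation genes (3 of 5), Xbp1 among the sensors (1 of 5) and Ddit3 among the ATF4 and CHOP targets (1 of 9). This order was looked for after the values were seen, and it carries no test. It was read from the brightest probe of each gene. On another kept probe, water replicates 1 and 3 were lowest for Derl3, Hyou1 and Sdf2l1. Another Hsp90b1 probe was lowest on ethylenediamine replicate 2 and water replicate 3, and another Syvn1 probe on ethylenediamine replicate 1 and water replicate 2. The other kept probes of Dnajb9, Herpud1 and Ddit3 had the order, as did 1 further Sdf2l1 probe. The list median of the chaperones, as a difference from the water mean, was 0.096, -0.14 and 0.13 on ethylenediamine replicates 1 to 3, against -0.13, 0.15 and -0.012 on water replicates 1 to 3. The low arrays stood in both groups and on both slides. Of the spread within groups, 22 of the 33 genes had a residual SD above the median of all genes, which was 0.115.

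The same order was counted in lists that do not include the members. It held for 7 of 23 genes of translocation and N-glycosylation, which move new proteins into the ER and attach their sugars, for 3 of 21 other folding enzymes and 3 of 18 other degradation genes. It held for 2 of 12 aminoacyl-tRNA synthetases, 1 of 14 genes of eIF2 and eIF2B, 0 of 20 other ATF4 targets and 0 of 7 proteases and other transmembrane factors. Among cell type markers it held for 0 of 6 of the proximal tubule, 1 of 5 of the collecting duct and 1 of 3 of plasma cells. It held for 0 of 3 each of the thick ascending limb, distal convoluted and connecting tubule, podocytes, endothelium, smooth muscle and leukocytes. For tubular injury it held for 0 of 4 markers. These shares stand beside each other as counts, and no test of their difference was made.

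Promoter windows were set beside this order, because ATF6, XBP1 and ATF4 act through known DNA elements. A window runs from 250 bases before to 50 bases after the annotated start (RefSeq, GRCr8), and 30 of the 36 genes had at least 1. Searched on both strands, the ER stress response element (ERSE; CCAAT, 9 bases of any kind, then CCACG) matched in 8 of the 30 genes, against 0.0765% of all 27457 genes with a window. They were Hspa5, Hsp90b1, Calr, Canx, Dnajc3, Creld2, Derl3 and Xbp1. The shorter ERSE-II (ATTGG, 1 base of any kind, then CCACG) matched in 3, Dnajb11, Hyou1 and Herpud1, against 0.0619% of all genes. Either element thus matched in 11 of 30, against 0.138% of all genes. Both elements were first described on human counterparts of genes of this list, so that the matches are no independent finding. The 2 elements share the letters CCACG, and no window held both. Of the 11 genes, all measured, 8 had ethylenediamine replicate 2 and water replicate 1 as the lowest arrays (Hspa5, Hsp90b1, Calr, Creld2, Hyou1, Herpud1, Derl3 and Xbp1), against 4 of the 17 measured genes that had a window without a match (Dnajb9, Sdf2l1, Syvn1 and Ddit3). The 2 sets differ in role, since all ATF4 and CHOP targets had a window without such a match. Among the chaperones, Canx, Dnajc3 and Dnajb11 had a match without this order, and Dnajb9 and Sdf2l1 the order without a match. Pdia3 and Pdia6 had the order and no window. The order is that of the brightest probe. Another kept probe did not share it for Hsp90b1, Hyou1 and Derl3 (with a match) or for Sdf2l1 and Syvn1 (without). Element and role cannot be told apart in these counts, and neither was tested.

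The windows of 6 such genes are shown because they carry these elements and are among the genes whose arrays shared this order. Capitals mark the match, the rest is in lower case, and each runs 5′ to 3′ on the strand of the gene. They lie at chr3:38452766-38453065 (plus strand), chr7:121789134-121789433 (plus strand), chr20:12766416-12766715 (minus strand), chr14:84604373-84604672 (plus strand), chr19:10614658-10614957 (minus strand) and chr8:53602632-53602931 (plus strand) of GRCr8, in the order printed. In Herpud1 the first capitals are a match to the ATF4 element described next and the second are the ERSE-II.
Hspa5: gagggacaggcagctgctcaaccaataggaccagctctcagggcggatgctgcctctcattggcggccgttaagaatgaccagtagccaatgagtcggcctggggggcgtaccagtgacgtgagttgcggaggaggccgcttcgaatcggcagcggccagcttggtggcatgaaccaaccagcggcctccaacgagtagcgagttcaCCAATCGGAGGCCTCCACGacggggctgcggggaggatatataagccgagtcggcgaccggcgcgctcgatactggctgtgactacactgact
Creld2: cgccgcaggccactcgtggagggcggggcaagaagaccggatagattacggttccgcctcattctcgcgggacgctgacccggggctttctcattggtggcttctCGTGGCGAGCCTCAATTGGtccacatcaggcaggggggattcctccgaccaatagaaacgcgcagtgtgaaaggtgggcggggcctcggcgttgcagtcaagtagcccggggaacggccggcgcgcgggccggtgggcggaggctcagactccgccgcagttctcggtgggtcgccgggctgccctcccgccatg
Derl3: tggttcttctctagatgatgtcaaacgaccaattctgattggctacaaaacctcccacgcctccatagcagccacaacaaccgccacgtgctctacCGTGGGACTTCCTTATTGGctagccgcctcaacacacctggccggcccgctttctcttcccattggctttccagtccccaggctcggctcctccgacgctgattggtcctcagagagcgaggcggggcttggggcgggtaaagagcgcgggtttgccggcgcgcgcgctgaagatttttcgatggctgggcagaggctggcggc
Xbp1: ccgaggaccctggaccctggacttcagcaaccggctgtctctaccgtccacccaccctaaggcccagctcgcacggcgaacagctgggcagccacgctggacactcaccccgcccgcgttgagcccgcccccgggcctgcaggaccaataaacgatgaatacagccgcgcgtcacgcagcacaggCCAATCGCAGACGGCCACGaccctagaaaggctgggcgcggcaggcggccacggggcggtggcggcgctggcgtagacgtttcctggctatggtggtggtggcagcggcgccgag
Herpud1: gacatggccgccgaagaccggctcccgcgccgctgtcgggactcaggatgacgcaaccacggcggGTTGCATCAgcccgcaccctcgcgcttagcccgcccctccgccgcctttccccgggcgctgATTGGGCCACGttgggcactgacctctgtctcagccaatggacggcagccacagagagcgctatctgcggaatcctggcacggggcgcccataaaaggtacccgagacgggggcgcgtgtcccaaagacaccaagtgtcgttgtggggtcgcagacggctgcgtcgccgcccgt
Hyou1: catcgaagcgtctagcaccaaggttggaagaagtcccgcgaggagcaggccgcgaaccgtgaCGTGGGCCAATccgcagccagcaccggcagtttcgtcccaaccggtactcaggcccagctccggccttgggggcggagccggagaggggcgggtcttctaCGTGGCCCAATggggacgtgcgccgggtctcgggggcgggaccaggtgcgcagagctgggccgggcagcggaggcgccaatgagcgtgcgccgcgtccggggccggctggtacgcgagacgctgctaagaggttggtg
The element of Hspa5 lies at -43 to -25 from the annotated start, that of Xbp1 at -65 to -47 and that of Derl3 at -154 to -136, counted in bases. The Hyou1 window holds 2 matches, both on the strand opposite to the gene.

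The composite element bound by ATF4 with a C/EBP partner (CARE, TGATGNAAN) matched in 3 of the 30 genes, Herpud1, Trib3 and Chac1, against 4.14% of all genes. Trib3 and Chac1 are shown because they are ATF4 targets with a match in the window, both on the strand opposite to the gene. Their windows lie at chr3:161275484-161275783 (minus strand) and chr3:126795881-126796180 (plus strand), with capitals at the match.
Trib3: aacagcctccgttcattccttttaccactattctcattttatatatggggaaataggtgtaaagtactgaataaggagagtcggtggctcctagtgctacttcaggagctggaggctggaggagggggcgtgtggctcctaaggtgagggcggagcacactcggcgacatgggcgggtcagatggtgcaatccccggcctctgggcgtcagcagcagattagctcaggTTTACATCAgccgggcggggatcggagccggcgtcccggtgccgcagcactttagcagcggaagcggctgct
Chac1: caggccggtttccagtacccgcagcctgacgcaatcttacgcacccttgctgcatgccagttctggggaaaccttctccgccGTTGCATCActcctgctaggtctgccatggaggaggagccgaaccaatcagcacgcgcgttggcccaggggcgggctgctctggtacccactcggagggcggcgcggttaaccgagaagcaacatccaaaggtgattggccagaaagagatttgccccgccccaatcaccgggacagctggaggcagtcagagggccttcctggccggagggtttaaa
Asns, Ppp1r15a, Phgdh, Psph, Psat1, Sesn2 and Ddit3 had a window without these letters, which says only that they are not in this stretch.

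**Figure D3:**
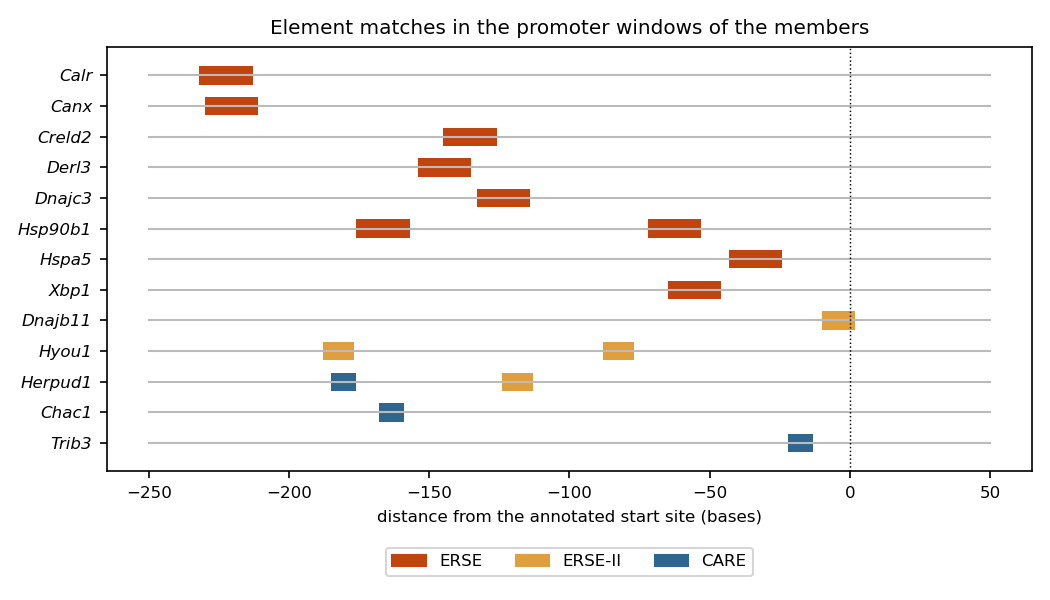
Matches to the ERSE, ERSE-II and CARE letters in the promoter windows of the members, as distance in bases from the annotated start (dotted line); each grey line is the 300-base window of 1 gene. The 13 genes shown are those with a match, 11 with an ERSE or ERSE-II and 3 with a CARE, Herpud1 among both.

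Targets of ATF4 and CHOP had fold changes in both directions. Of 9 measured, 3 had a positive and 6 a negative fold change, with a median of -0.075 (0.073 within slide 1). By limma 4 had an unadjusted p under 0.05, 2 in each direction, where 10.4% of all genes had such a p. Without water replicate 1 none of them had such a p. Asparagine synthetase (Asns), whose gene is a classical target of the response to amino acid shortage, stood at -0.58, -0.77 and -0.34 in ethylenediamine cortex and -1.07, -0.76 and -0.96 in water cortex. Ethylenediamine replicates 1 and 3 lay above all water arrays, and replicate 2 lay just below water replicate 2. The fold change was 0.36 ± 0.14 (SE, n = 3 per group; unadjusted p = 0.0386, adjusted p = 0.461), with an interval of 0.027 to 0.70, and within slide 1 it was 0.34.

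Ppp1r15a, which encodes the stress-induced subunit (GADD34) of the phosphatase that removes phosphate from eIF2, stood at 0.77, 0.79 and 0.72 on ethylenediamine arrays, against 0.56, 0.49 and 0.67 on water arrays. All 3 ethylenediamine values lay above all 3 water values, with a fold change of 0.19 ± 0.065 (unadjusted p = 0.0297, adjusted p = 0.434). Its other probe stood at 0.16 ± 0.065, and within slide 1 the brightest probe stood at 0.20. No other member had all ethylenediamine values above all water values.

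The genes of serine synthesis had negative fold changes. Phgdh, Psat1 and Psph encode the 3 enzymes that make serine from a glycolytic intermediate, and all are known ATF4 targets. Phgdh stood at 6.944, 6.653 and 6.791 in ethylenediamine cortex, against 7.014, 7.035 and 7.002 in water cortex, where every ethylenediamine value lay below the water values and the water values lay within 0.033 of each other. The fold change was -0.22 ± 0.084 (unadjusted p = 0.0399, adjusted p = 0.461). Its second probe stood at -0.23 ± 0.072. Psph stood at 2.57, 2.20 and 2.62 in ethylenediamine cortex, against 2.93, 2.69 and 2.77 in water cortex, again with no overlap, and with a fold change of -0.33 ± 0.13 (unadjusted p = 0.0471, adjusted p = 0.479).

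Psat1, the middle enzyme, stood at 5.40, 5.26 and 5.75 on ethylenediamine arrays and 5.74, 5.62 and 5.47 on water arrays. Its groups overlapped, since ethylenediamine replicate 3 was the highest array, and the fold change was -0.14 ± 0.14 (adjusted p = 0.75). Within slide 1 the values of Phgdh, Psat1 and Psph were -0.073, -0.21 and -0.23. Without ethylenediamine replicate 2, the lowest array for all 3 genes, Phgdh stood at -0.15, Psat1 at -0.036 and Psph at -0.20. Markers of the proximal tubule, which makes serine, had 3 positive and 3 negative fold changes. The median of the 6 markers was -0.10 to -0.075 on ethylenediamine arrays and -0.023 to 0.041 on water arrays, and 0 of the 6 were below background. The negative ones were the endocytic receptor Lrp2 at -0.19 ± 0.056, the lactate transporter Slc5a12 at -0.29 ± 0.11 and Slc5a2 at -0.14 ± 0.059. The positive ones were Slc34a1 at 0.0015 ± 0.060, Cubn at 0.020 ± 0.089 and Slc22a6 at 0.021 ± 0.046. The part of these markers in the serine values was not tested.

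Trib3, a pseudokinase that CHOP and ATF4 switch on, had the highest fold change of the 33 genes. It stood at -4.04, -4.15 and -4.96 in ethylenediamine cortex and -4.45, -4.99 and -4.98 in water cortex, with ethylenediamine replicates 1 and 2 above all water arrays and replicate 3 among the lowest. The fold change of 0.42 ± 0.29 (adjusted p = 0.65) comes from a dim probe. The lowest signal well above background was -4.45 on ethylenediamine replicate 1 and -5.51 to -5.19 on the water arrays, and dim probes stood higher on that ethylenediamine array. Without ethylenediamine replicate 1 the value was 0.25 and without replicate 3 it was 0.71.

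Ddit3, which encodes CHOP, stood at 3.31, 2.72 and 2.90 on ethylenediamine arrays and 2.89, 3.34 and 2.93 on water arrays, with overlapping groups and a fold change of -0.075 ± 0.19 (adjusted p = 0.914; 0.26 within slide 1). Chac1, which degrades glutathione and is a target of the ATF4 and CHOP pair, stood at -0.95, -1.08 and -1.25 on ethylenediamine arrays and -0.90, -0.99 and -1.17 on water arrays, also overlapping, a fold change of -0.073 ± 0.11 (adjusted p = 0.833; 0.073 within slide 1). Sesn2, a stress inhibitor of mTORC1 that senses leucine, stood at -0.23 ± 0.13 (adjusted p = 0.606), and within slide 1 at -0.46.

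**Figure D4:**
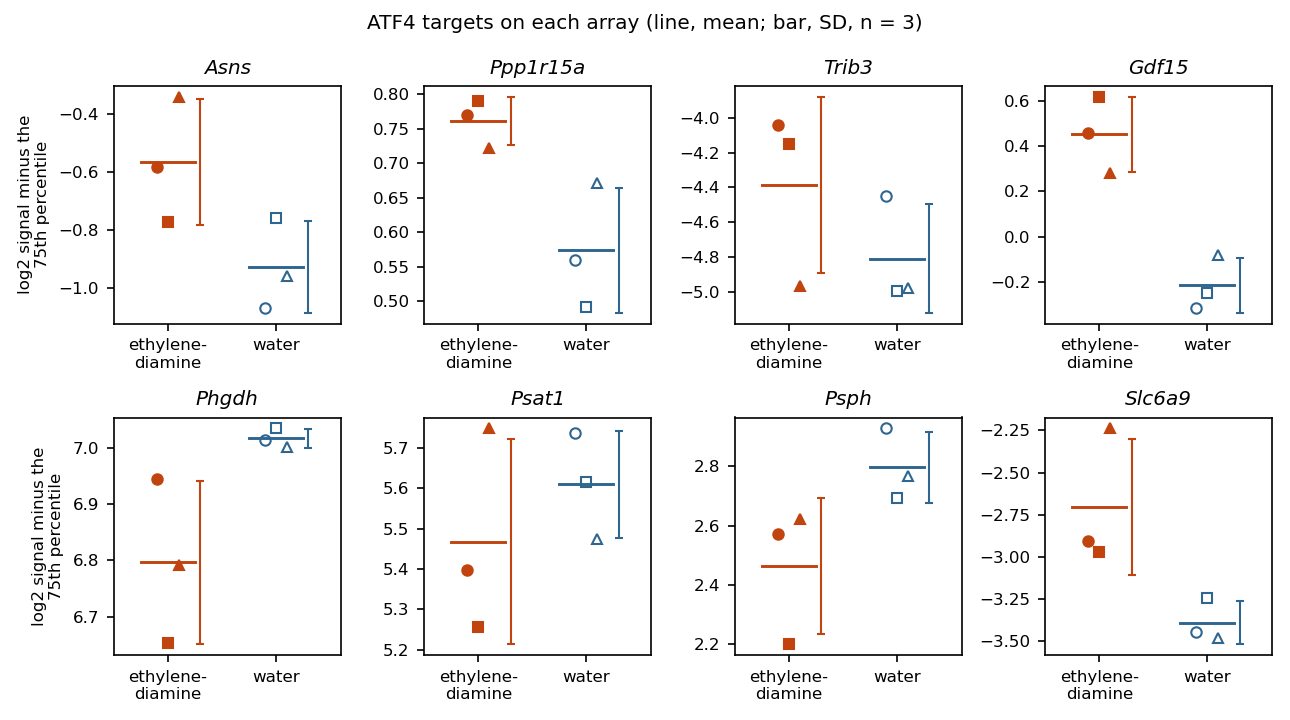
Log2 signal on each array of 6 measured members and of Gdf15 and Slc6a9 from the wider ATF4 list, each panel with its own axis; the line is the group mean and the bar the SD of 3 arrays. Ethylenediamine values of Ppp1r15a, Gdf15 and Slc6a9 lie above all water values, those of Phgdh and Psph below them, and those of Asns, Trib3 and Psat1 overlap with them.

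Other genes of the integrated stress response were taken as wider lists. Of 27 further ATF4 targets for amino acid supply and stress, 20 were measured, 15 with a positive and 5 with a negative fold change, against 48.8% positive over all genes. Their median was 0.16, where the median over all genes was -0.0036. By limma 0 passed the adjusted threshold, and 3 were higher and 1 lower at an unadjusted p under 0.05, against 5.39% and 4.97% of all genes. The groups did not overlap for 3 higher and 2 lower genes of the 20, against 9.20% and 8.27% of all genes. Gdf15, a secreted stress cytokine, stood at 0.46, 0.61 and 0.28 in ethylenediamine cortex, against -0.31, -0.25 and -0.079 in water cortex, with no overlap. Its fold change was 0.67 ± 0.11 (unadjusted p = 0.000952, adjusted p = 0.303) and 0.67 within slide 1. Gdf15 is also a known target of p53.

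Slc6a9, a glycine transporter, stood at -2.90, -2.97 and -2.24 on ethylenediamine arrays and -3.44, -3.25 and -3.48 on water arrays, again with no overlap, at a fold change of 0.69 ± 0.21 (adjusted p = 0.389) and 0.49 within slide 1. The list median on ethylenediamine replicates 1 to 3 was 0.19, 0.14 and 0.091, against 0.016, -0.035 and 0.027 on water replicates 1 to 3, so that every ethylenediamine array lay above every water array. The medians of the 9 members, at 0.073, -0.22 and -0.15 on ethylenediamine arrays and 0.11, 0.0072 and -0.030 on water arrays, overlapped, and the 2 lists were not compared by a test. The other genes past an unadjusted p of 0.05 in the wider list, named after their values were seen, were Pck2 at 0.20 ± 0.074, of mitochondrial gluconeogenesis, and Slc3a2, the heavy chain of amino acid exchangers, at -0.13 ± 0.052.

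Marker lists of injury and of other cells had fold changes in both directions. The 4 tubular injury markers had 4 positive fold changes, with array medians of 0.63 to 1.62 on ethylenediamine arrays and -0.45 to 0.30 on water arrays, where the injury receptor Havcr1 was well above background on 3 of 3 ethylenediamine arrays and on 2 of 3 water arrays, at levels near the background signal in water cortex that allow no exact fold change. The 3 smooth muscle markers had 3 positive fold changes, with medians of 0.61 to 0.76 on ethylenediamine arrays and -0.15 to 0.19 on water arrays. Markers of the distal convoluted and connecting tubule had 3 negative fold changes of 3 measured, with medians of -0.62 to -0.29 on ethylenediamine arrays and -0.18 to 0.11 on water arrays. Those of the collecting duct had 5 negative fold changes of 5, with medians of -0.45 to 0.011 on ethylenediamine arrays and -0.13 to 0.14 on water arrays. By limma none of these 15 markers passed the adjusted threshold, where 0% of all 11530 genes did. At an unadjusted p under 0.05, 3 injury and 3 smooth muscle markers were higher, against 5.39% of all genes. At that p, 2 distal and 2 collecting duct markers were lower, against 4.97% of all genes. The part of these 15 markers in the values of Gdf15, Slc6a9 and the rest was not tested.

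Cytosolic aminoacyl-tRNA synthetases, which load amino acids onto their tRNAs and are raised by ATF4, had 10 positive and 2 negative fold changes among 12 measured, with a median of 0.11. The list of 13 also held Xpot, which is no synthetase and had no named probe. At an unadjusted p under 0.05 there were 2 higher and 0 lower, against 5.39% and 4.97% of all genes, and 0 passed the adjusted threshold by limma. Mars1, for methionine, stood at 0.18 ± 0.058 (adjusted p = 0.407) and Cars1, for cysteine, at 0.23 ± 0.079 (adjusted p = 0.423). Both had all ethylenediamine values above all water values, as had 4 of the 12 measured and 9.20% of all genes. The list median was 0.074, 0.040 and 0.22 on ethylenediamine replicates 1 to 3, against -0.022, 0.018 and 0.0071 on water replicates 1 to 3.

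**Figure D5:**
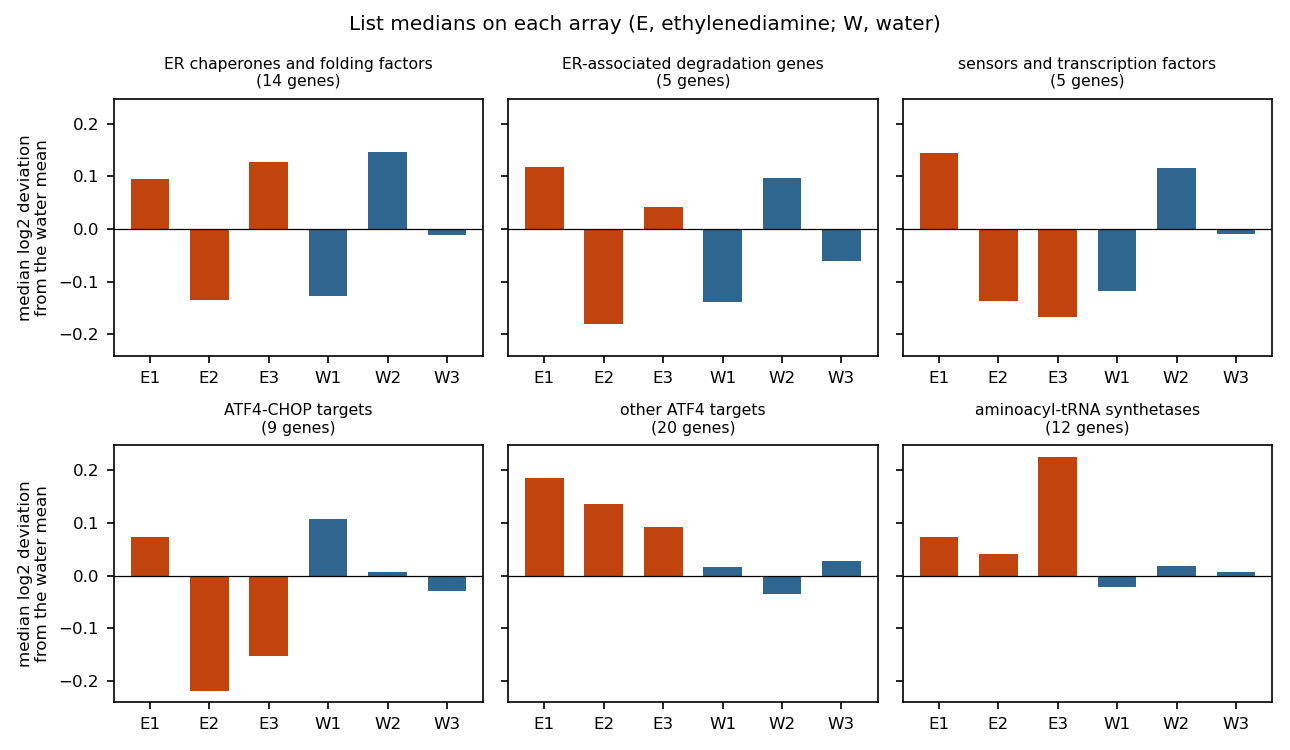
Median over the genes of a list of the log2 difference from the mean of the 3 water arrays, per array, for the 4 role groups and 2 wider lists. The medians of the chaperones and degradation genes are lowest on ethylenediamine replicate 2 and water replicate 1, and those of the wider ATF4 list and of the aminoacyl-tRNA synthetases are higher on all 3 ethylenediamine arrays than on the water arrays.

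Genes that act on eIF2 itself had a median near that of all genes. Among 14 kinases, subunits and phosphatases of eIF2 and its exchange factor eIF2B, 11 fold changes were positive, against 48.8% of all genes. By limma none had an unadjusted p under 0.05, and the median was 0.029. It was 0.0032, 0.054 and 0.051 on ethylenediamine replicates 1 to 3, against -0.021, 0.016 and -0.0072 on water replicates 1 to 3. Eif2s1, the subunit that is phosphorylated, stood at 0.074 ± 0.048 and Eif2b2 at 0.16 ± 0.14. Proteases and other transmembrane factors of the response had 7 of 9 measured and a median of 0.054, with Mbtps2, a protease that releases ATF6, at 0.30 ± 0.10 (adjusted p = 0.418) and the Xbp1 RNA ligase Rtcb at -0.071 ± 0.056. The Mbtps2 value turned negative, at -0.14, when all its kept probes were averaged.

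Lists of the secretory route had medians near that of all genes. It was 0.0025 over 23 genes of translocation and N-glycosylation, with the oligosaccharyltransferase subunits Stt3b at 0.19 ± 0.067 (adjusted p = 0.429) and Rpn1 at -0.15 ± 0.067 (adjusted p = 0.506). It was 0.013 over 21 other folding enzymes, with the prolyl isomerase Fkbp11 at 0.26 ± 0.076 (adjusted p = 0.376) and the disulphide isomerase Txndc5 at 0.14 ± 0.080. It was also 0.013 over 18 other degradation genes, with the mannosidase Edem3, which trims glycans of misfolded proteins, at -0.32 ± 0.085 (adjusted p = 0.353) and the ubiquitin ligase Rnf139 at -0.093 ± 0.052. Of these 62 genes, 2 were higher and 1 lower at an unadjusted p under 0.05, against 5.39% and 4.97% of all genes, and by limma 0 passed the adjusted threshold.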

How the data were processed

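RNA of the renal cortex of 6 rats, 3 given ethylenediamine dihydrochloride and 3 given water, was measured on 6 1-colour Agilent arrays. The deposited scanner files hold the processed intensity of each spot, which Agilent Feature Extraction had background-subtracted and detrended within the array. Its version was 10.7.1.1 in the headers, and the submitters' processing notes give 10.7. The deposited value table holds the same intensities divided by the 75th percentile of each array, with 100% of probes within 2% of that scaling. Its column medians were 0.1061, 0.1104 and 0.1071 for ethylenediamine replicates 1 to 3 and 0.1076, 0.1052 and 0.1046 for water replicates 1 to 3, and its values run on a linear scale with no centring of genes. Log2 processed signal minus the 75th percentile of each array was computed from the scanner files. Of 61537 probes that were no control spot, 22 with an outlier flag were left out, and 28194 of the remaining 61515 had 1 gene symbol through the RefSeq tables used for names. Probes stayed in when every array of at least 1 group called them well above background (37822 probes, 19905 of them named), and the brightest kept probe stood for each of 11530 genes. No spot was saturated, and the number of arrays limits the precision.

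The test was limma's moderated fit (version 3.58.1, run in R 4.3.3) of ethylenediamine minus water with residual df 4, and p-values were adjusted over all 11530 genes by Benjamini-Hochberg at a threshold of 0.05. In a test on simulated data for this comparison with 11530 genes, the fit called 81 of the 100 genes given a 2-fold change, 95 of the 100 given a 4-fold change and 7 genes left alone. The simulated noise was normal and independent, with no slide effect, and no smaller change was simulated. The largest fold change of a member was 1.34 (Trib3), so these counts do not give the power for changes of that size. Replicates are separate rats per the labels. The shared replicate numbers were not taken as pairs in the main fit, since the labels name no pairs. The correlations of same-numbered deviations were -0.0030, 0.022 and -0.0080, which cannot show whether rats were handled together. Alternatives covered background correction, scaling, the deposited values, the probe filter, the choice of probe, slide, replicate block, array weights, intensity trend and leaving out each array. The planned normexp correction of mean signals used median signals, since the columns used hold medians. Testing every kept probe alone and describing the order of arrays were added after the data were seen.

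The members and gene lists were chosen with earlier results of these data known. Values on each array are given for members with an unadjusted p under 0.05, for the highest and lowest fold change of each role, and for Hspa5, Hsp90b1, Xbp1, Atf4, Atf6, Herpud1, Sel1l, Derl3, Ddit3, Trib3, Asns, Chac1, Psat1 and Phgdh, while the 2 genes of smallest p from each wider list are named by their fold change. Promoter windows come from RefSeq (GRCr8), and the arrays were designed on another build.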

Additional observations from a re-analysis of the deposited data

How the results depend on the processing

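None of the 33 genes passed the adjusted threshold by limma under any of 18 alternatives, where the lowest adjusted p was 0.235 (Phgdh without ethylenediamine replicate 1). Over all genes tested, 10 passed with the slide as a block, 6 within slide 1, 1 with an intensity trend and 0 to 1 when 1 array was left out (1 without ethylenediamine replicate 1 and 1 without water replicate 2). With the replicate number as a block 0 passed. Testing every kept probe alone called 4 of 37822 probes and 0 of 52 member probes. Of 593 values of members under these alternatives, 512 kept the sign and 81, in 19 members, did not, while 14 members had 1 sign throughout. Some of these alternatives could not turn a sign. The replicate block, the intensity trend and the changed probe filters left the fold changes of the tested members as in the main fit. The slide block gave the same fold changes as slide 1 alone, so the 593 values are not separate checks. Of 252 values of the 14 named genes of the wider lists, 3 had the other sign. With slide as a block and within slide 1 alike, the medians were 0.12 for degradation genes, 0.14 for sensors and 0.073 for ATF4 and CHOP targets, and the sign turned for Hspa5 (0.090), Pdia3 (0.0044), Dnajb9 (0.12), Dnajc3 (0.028), Creld2 (-0.039), Herpud1 (0.15), Xbp1 (0.14), Atf4 (0.25), Eif2ak3 (0.15), Ddit3 (0.26), Chac1 (0.073) and Eif2b2 (-0.031). Phgdh stood at -0.073 there, against -0.22 over all arrays. Averaging kept probes turned Hsp90b1 (-0.012), Canx (-0.041), Syvn1 (-0.041) and Mbtps2 (-0.14). Normexp turned P4hb (-0.0047), Canx (-0.044), Herpud1 (0.019) and Eif2ak3 (0.0080), and quantile scaling P4hb (-0.00067), Canx (-0.021) and Creld2 (-0.0080). Median scaling turned P4hb (-0.018), Canx (-0.028), Creld2 (-0.028) and Syvn1 (-0.011), the deposited values Canx (-0.00027) and Creld2 (-0.00068), and array weights Canx (-0.021), Creld2 (-0.074), Syvn1 (-0.014) and Derl3 (-0.0016). Leaving out 1 array at a time gave ranges across 0 for 17 members. They were -0.23 to 0.16 for Hspa5, -0.025 to 0.086 for Hsp90b1, -0.20 to 0.11 for Pdia4, -0.030 to 0.060 for P4hb, -0.058 to 0.072 for Canx, -0.18 to 0.089 for Dnajb9, -0.049 to 0.25 for Sdf2l1, -0.25 to 0.23 for Creld2, -0.16 to 0.21 for Herpud1, -0.052 to 0.084 for Syvn1, -0.30 to 0.51 for Derl3, -0.18 to 0.12 for Xbp1, -0.55 to 0.16 for Ern1, -0.13 to 0.10 for Atf4, -0.14 to 0.022 for Eif2ak3, -0.24 to 0.070 for Ddit3 and -0.15 to 0.0070 for Chac1. The cause of these turns was not tested. Ern1 and Trib3 lie near the background signal, which limits their values.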
